A study of Mus musculus with 2 samples.

Results

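The amino acid transporter genes examined here were the rows of the count table named Slc1a, Slc3a, Slc6a, Slc7a, Slc36a, Slc38a or Slc43a followed by digits only. This rule found 59 genes in 7 families, out of 20003 listed genes, and used no measured value. The series asked how blocking Hedgehog signalling alters the transcriptome of macrophages of the alternatively activated (M2) type, and held 2 messenger RNA libraries sequenced on an Illumina HiSeq 2500. Cells of the library labelled M2+GANT61 had been treated with GANT61, an inhibitor of the GLI transcription factors, at 10 µM. Its counterpart, labelled M2+DMSO, received only the solvent, and the pair are called the GANT61 and DMSO libraries after these labels. Both were labelled as RAW 264.7, a single mouse macrophage line, and per the labels' protocols both received 20 ng/mL of M-CSF and 10 ng/mL of IL-4, with GANT61 or DMSO added 4 h before IL-4. The time with IL-4 was given as 15 min in one protocol text and 24 h in another.

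Amino acids cross cell membranes only through carrier proteins, and the families studied here differ in their substrates and in what drives transport. The Slc1 family moves glutamate or small neutral amino acids with sodium, the Slc6 family moves neurotransmitters and related amino acids with sodium and chloride, and the Slc38 family moves glutamine and other neutral amino acids. The Slc7 family holds the cationic amino acid carriers and a set of light chains that reach the surface only when bound to a heavy chain of the Slc3 family. Some Slc36 carriers are driven by protons, and Slc43 carriers are facilitators. In macrophages, arginine uptake feeds both arginase and the inducible nitric oxide synthase, and cystine uptake feeds glutathione synthesis.

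Summed over the listed genes, the rounded counts were 61632784 in the DMSO and 57705874 in the GANT61 library. Each group held 1 library, so replicate error could not be measured and conditions could not be tested. Both libraries also held markers of cells other than macrophages, although both were labelled as a single macrophage line. Of 57 markers in 7 lists of other cell types, 52 stood at 10 CPM (counts scaled by library size) or more in both libraries. The 10 macrophage markers were all higher in the GANT61 library, at ratios from 1.63 to 9.02, and their summed level was 2444 CPM in the DMSO and 7738.5 CPM in the GANT61 library. The 10 adipocyte markers were all lower, at ratios from 0.101 to 0.2405, with a summed level of 6674.5 and 1082.5 CPM. No marker in any of these lists was at 0 in either library.

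Differences are given as GANT61 over DMSO ratios, from counts scaled to the same library size, with a 95% exact Clopper-Pearson binomial interval in parentheses that covers counting error only. A gene was called higher or lower where its ratio was at least 1.5 or at most the inverse, the interval excluded 1 and the mean level was at least 1 CPM. In material with RNA of several cell types, fewer cells of a type and less RNA per cell cannot be told apart.

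Of the 59 transporter genes, 35 reached a mean of 1 CPM, and among these 14 were higher, 8 were lower and 13 were neither. Across all 13939 genes at that level, 14.1% were higher and 10.3% lower in the GANT61 library, against 40.0% and 22.9% of the 35 transporters. The same 14.1% and 10.3% are the shares to set beside the counts by class and family below, which rest on few genes each. At a 2-fold threshold 9 transporters were higher and 6 lower, beside 6.97% and 4.27% of all genes. The median log2 ratio of the 35 was 0.36, beside -0.01 over all genes at that level. The higher members ranged in ratio from 1.64 to 4.19 and the lower ones from 0.125 to 0.625, and those called neither lay between 0.920 and 1.35. Of the 14 higher members, 3 (Slc1a1, Slc1a2 and Slc6a17) were under 1 CPM in the DMSO library and reached the mean of 1 CPM through the GANT61 one, so their inclusion favoured a high ratio. Among the 22 members with a mean of at least 20 CPM, 8 were higher, 4 lower and 10 neither. The share of all genes at 20 CPM was not computed. Of the members called, the closest to the thresholds were Slc7a11 at 0.625, Slc7a1 at 1.64 and Slc38a9 at 1.68, and the closest of those not called were Slc38a7 at 1.35 and Slc6a6 at 1.34.

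**Figure D1:**
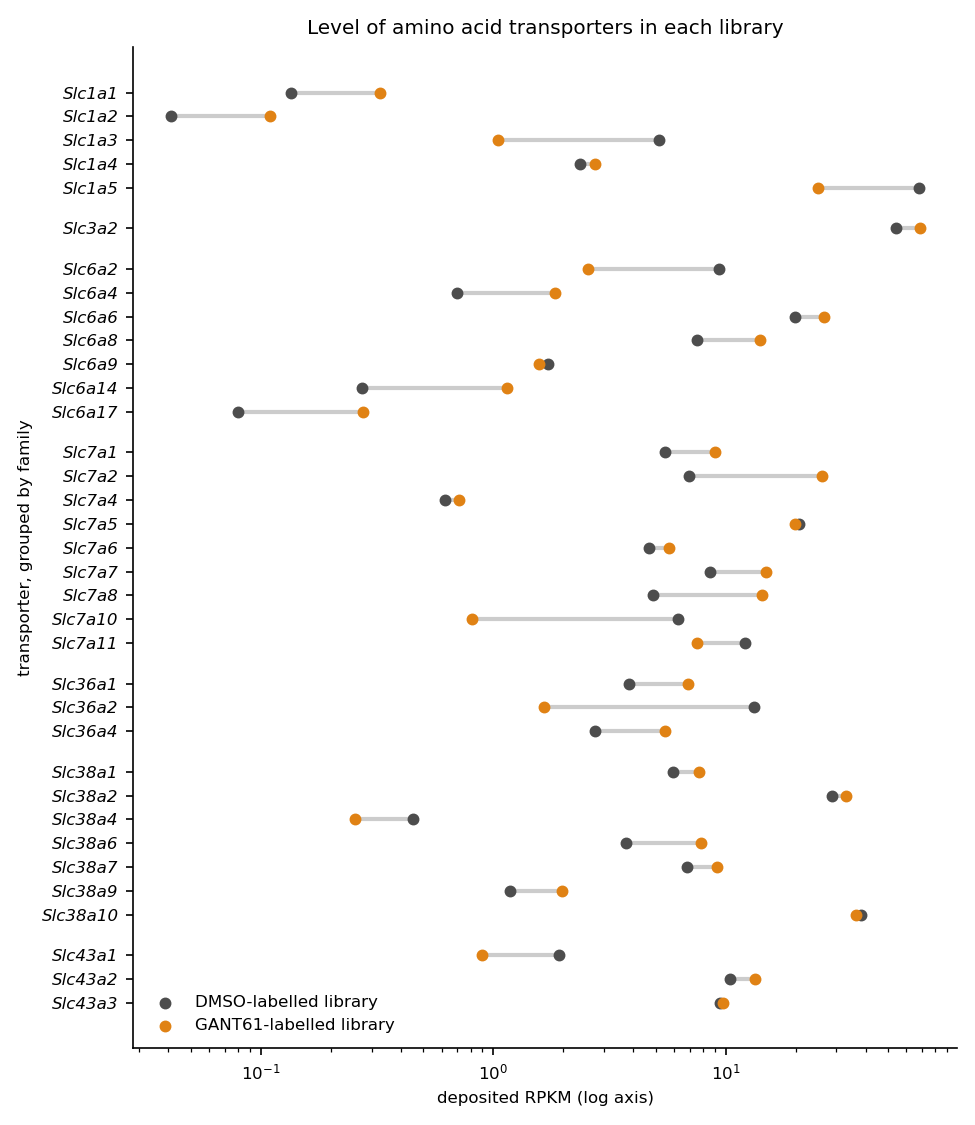
Deposited RPKM (log axis) of the 35 transporters with a mean of at least 1 CPM, grouped by family. RPKM are reads scaled by gene model length and a library total set by the authors. Each gene has 1 point per library and a grey line joins them. Slc1a5 had the highest level in the DMSO library, at 68.2 RPKM, and Slc3a2 in the GANT61 library, at 68.3 RPKM.

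Carriers of cationic amino acids were higher in the GANT61 library in 4 of the 5 members that reached 1 CPM, and 0 were lower. Over all genes at that level, 14.1% were higher and 10.3% lower. With a 2-fold threshold, 1 cationic carrier was higher. Slc7a2, which encodes CAT2, the arginine carrier associated with activated macrophages, stood at 69.2 CPM with DMSO and 259 CPM with GANT61, giving a ratio of 3.75 (3.62 to 3.88). It moved from rank 14 to rank 5 of the 59 genes by RPKM, a length-scaled level, with 6.99 RPKM in the DMSO and 26.1 RPKM in the GANT61 library. The gene lies at chr8:40862396-40922308 on the plus strand (mm10, GENCODE M21). Its gene-level counts do not separate the alternatively spliced forms CAT2A and CAT2B.

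Slc7a1, the widely expressed carrier CAT1, stood at 50.1 CPM with DMSO and 82.2 CPM with GANT61, giving a ratio of 1.64 (1.57 to 1.72). Slc7a7, which encodes y+LAT1 and exchanges cationic for neutral amino acids, stood at 27.1 and 47.5 CPM, giving a ratio of 1.75 (1.65 to 1.865). Slc38a9, the lysosomal arginine sensor of the mTORC1 pathway, stood at 13.3 and 22.3 CPM, giving a ratio of 1.68 (1.53 to 1.83). These 3 genes thus stood apart from Slc7a6, which encodes y+LAT2 and differed by less than the threshold, at 27.2 and 33.5 CPM and a ratio of 1.23 (1.15 to 1.31). Slc7a3, the carrier CAT3, had only 14 and 20 reads. Summed over the 6 listed genes of this class, the level was 187 CPM in the DMSO and 445 CPM in the GANT61 library, and Slc7a2 alone made up most of the difference. The macrophage markers, at a median log2 ratio of 1.23, were higher beside this class, and their part in the result was not tested.

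The heavy chain Slc3a2 was called neither, while 4 of its 6 light chains measured here were called, 2 in each direction. Slc3a2 encodes 4F2hc (CD98), which carries its light chains to the plasma membrane, and stood at 202 CPM with DMSO and 256 CPM with GANT61, giving a ratio of 1.27 (1.24 to 1.30). It ranked first by RPKM in the GANT61 library and second in the DMSO one. Slc7a5 (LAT1), the importer of leucine and other large neutral amino acids in growing cells, stood at 91.4 and 88.1 CPM, giving a ratio of 0.965 (0.9285 to 1.002). Slc7a8 (LAT2), which has a similar substrate range, stood at 24.9 and 73.3 CPM, giving a ratio of 2.95 (2.78 to 3.125). Slc7a5 and Slc7a8 therefore differed from each other in their ratios by more than their counting intervals.

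Slc7a11 encodes xCT, which takes up cystine in exchange for glutamate, and stood at 142 CPM with DMSO and 88.4 CPM with GANT61, giving a ratio of 0.625 (0.603 to 0.647). Slc7a10 encodes Asc-1, a carrier of small neutral amino acids that is also known as a surface marker of white adipocytes, and stood at 15.4 and 2.01 CPM, giving a ratio of 0.131 (0.107 to 0.159). That ratio lay within the range of the 10 adipocyte markers, 0.101 to 0.2405, and the part of adipocyte RNA in it was not tested. By RPKM, Slc7a10 fell from 10.9% of the summed light chain level to 1.285%, and Slc7a11 from 21.3% to 11.97%. Slc7a8 made up 8.55% and 22.7%, Slc7a7 15.0% and 23.7%, Slc7a5 36.1% and 31.3%, and Slc7a6 8.19% and 9.06%. The summed light chain level itself was similar, at 57.2 RPKM in the DMSO and 63.3 RPKM in the GANT61 library, and the heavy chain stood at 0.946 and 1.08 of it.

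The sequences before the starts of the 4 called light chain genes are shown because their transcripts moved in opposite directions while sharing a heavy chain. Each runs 5′ to 3′ over the 250 bases before an annotated start (RefSeq, GRCm38.p6), with the letters of a C/EBP-ATF response element in capitals where they occur. This element binds ATF4, the factor that induces transporter genes when amino acids run short.
Slc7a11, chr3:50443614-50443863, minus strand: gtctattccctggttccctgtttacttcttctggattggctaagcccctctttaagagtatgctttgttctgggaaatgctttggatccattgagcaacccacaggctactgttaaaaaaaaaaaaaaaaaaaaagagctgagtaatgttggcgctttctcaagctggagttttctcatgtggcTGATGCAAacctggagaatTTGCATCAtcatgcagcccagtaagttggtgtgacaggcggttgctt
Slc7a7, chr14:54417703-54417952, minus strand: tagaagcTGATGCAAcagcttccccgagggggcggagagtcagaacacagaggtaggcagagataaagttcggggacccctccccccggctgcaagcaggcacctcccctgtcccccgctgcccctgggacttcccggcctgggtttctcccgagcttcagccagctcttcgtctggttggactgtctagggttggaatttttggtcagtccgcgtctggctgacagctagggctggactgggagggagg
Slc7a8, chr14:54781887-54782136, minus strand: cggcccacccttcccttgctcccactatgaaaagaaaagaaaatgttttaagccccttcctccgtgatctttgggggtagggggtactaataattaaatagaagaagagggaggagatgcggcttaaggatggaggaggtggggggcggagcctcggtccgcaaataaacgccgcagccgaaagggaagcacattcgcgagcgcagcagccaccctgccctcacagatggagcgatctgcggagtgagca
Slc7a10, chr7:35186135-35186384, plus strand: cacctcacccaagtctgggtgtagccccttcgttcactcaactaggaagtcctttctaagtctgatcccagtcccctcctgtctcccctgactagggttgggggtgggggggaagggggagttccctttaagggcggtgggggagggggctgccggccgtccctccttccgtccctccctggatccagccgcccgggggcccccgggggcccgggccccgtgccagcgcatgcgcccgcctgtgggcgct
The motif searched was TGATGNAA on both strands, and it occurred in 3.45% of the 32851 windows of this length. Slc7a11 held it as TGATGCAA and again, facing the other way, as TTGCATCA. Slc7a7 has 5 annotated starts in the table, and the window shown, chosen for its match, held TGATGCAA. Of its other windows 1 held TGATGAAA, and the remaining 3 held no match. The windows of Slc7a8 and Slc7a10 held no match to these letters. An antioxidant response element (TGACNNNGC) and a STAT6 element (TTC, any 4 bases, GAA) were searched in the same way and occurred in 10.2% and 5.85% of all windows, and in none of the windows of these 4 genes. Over all 3 motifs, 42 of the 59 transporters had a window in the table. Among those with a mean of at least 1 CPM, the C/EBP-ATF letters were found in 1 of 12 higher, 1 of 5 lower and 0 of 8 other members. Counted by gene, with a match in any window, 3.91% of 27025 genes held them. The higher member was Slc7a7, whose 5 windows gave it more places for a match. The antioxidant and STAT6 letters were found in 8 and 3 of the 42 members, beside 11.5% and 6.76% of genes.

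The other carriers of large, branched-chain and broad neutral amino acids gave values in both directions. Slc6a14, whose product ATB0,+ carries most neutral and cationic amino acids and is known from mucosal epithelium, was at 1.18 and 4.98 CPM in the DMSO and GANT61 libraries. Its ratio of 4.19 (3.25 to 5.52) was the highest of the 35 members and rested on 74 and 283 reads. Slc6a17, a vesicular neutral amino acid carrier of neurons, had 40 and 125 reads, a ratio of 3.41 (2.39 to 5.045). Slc43a1 (LAT3), a facilitator of branched-chain amino acids, stood at 7.11 and 3.31 CPM, giving a ratio of 0.466 (0.390 to 0.553). Its relative Slc43a2 (LAT4) was far more abundant, at 95.3 and 122 CPM, and was called neither at a ratio of 1.28 (1.24 to 1.33). Of the 8 listed genes in this class, 6 reached 1 CPM, of which 3 were higher, 1 lower and 2 neither.

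**Figure D2:**
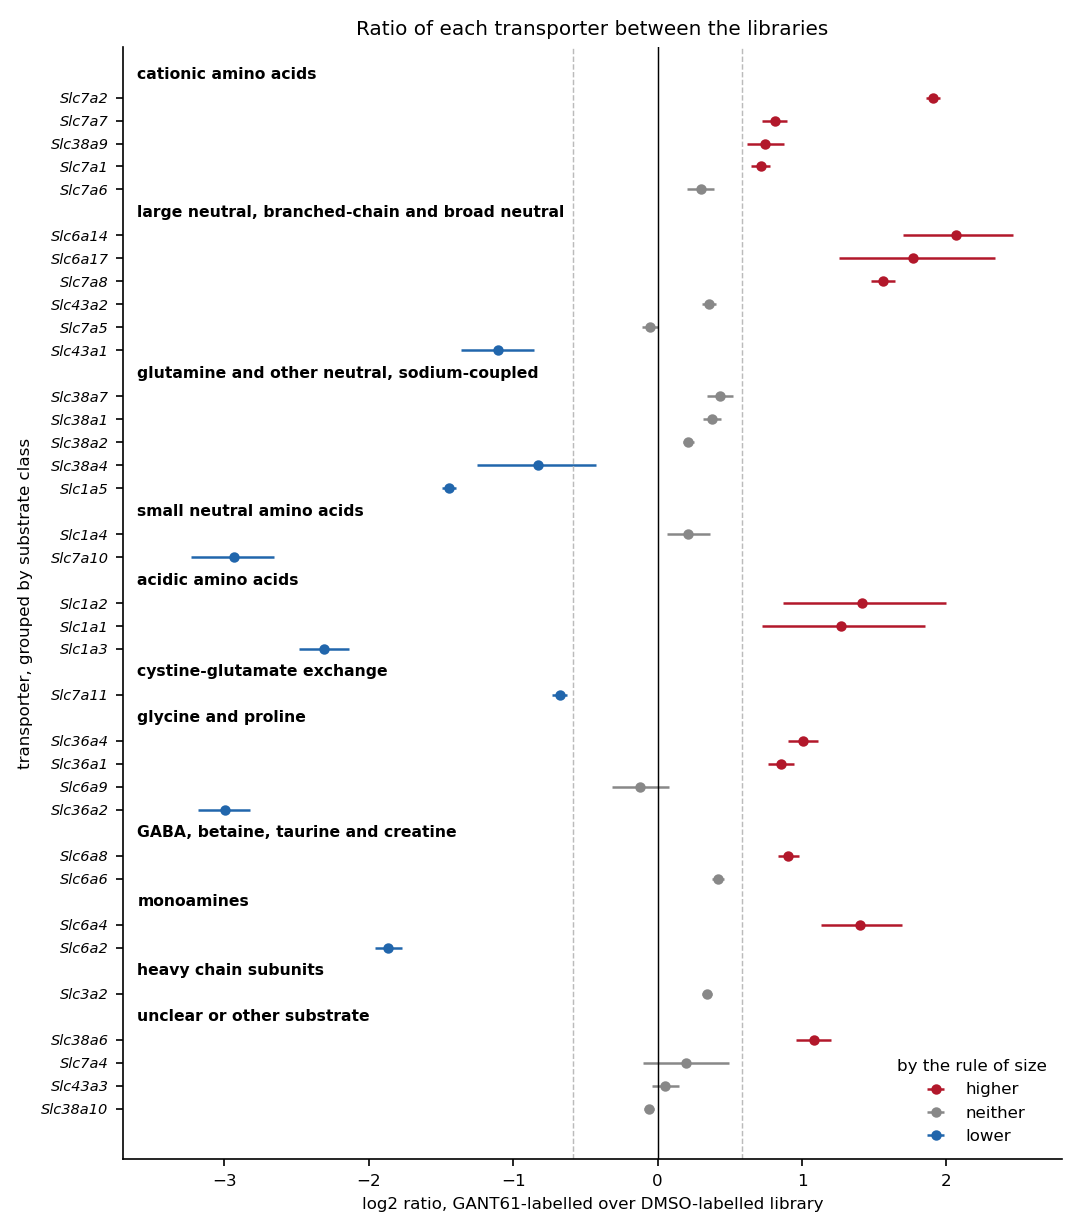
Log2 ratio of the GANT61 over the DMSO library for the 35 transporters with a mean of at least 1 CPM, grouped by substrate class. Bars are 95% counting intervals, dashed lines mark the 1.5-fold thresholds, and colour gives the call. The points run from Slc36a2 at -3.00 to Slc6a14 at 2.07, and the cationic class has 4 of 5 points above the upper threshold.

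Of the 5 sodium-coupled carriers of glutamine and other neutral amino acids at 1 CPM or more, 2 were lower, 3 were neither and 0 were higher. Slc1a5 encodes ASCT2, a sodium-coupled exchanger that is a main route of glutamine entry in proliferating cells, and stood at 237 CPM with DMSO and 87.2 CPM with GANT61. Its ratio was 0.368 (0.356 to 0.380), from 14832 and 4953 reads, and it fell from rank 1 to rank 6 by RPKM. It lies at chr7:16781340-16798274 on the plus strand (mm10). That ratio lay above the range of the adipocyte markers, 0.101 to 0.2405, and the part of other cell types in it was not tested.

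The 3 abundant Slc38 genes of this class were called neither. Slc38a2 (SNAT2), the system A carrier that cells raise on amino acid shortage, stood at 168 CPM with DMSO and 195 CPM with GANT61, giving a ratio of 1.16 (1.13 to 1.19). Slc38a1 (SNAT1) stood at 63.0 and 81.9 CPM, giving a ratio of 1.30 (1.25 to 1.36). Slc38a7, a lysosomal exporter of glutamine, stood at 28.3 and 38.2 CPM, giving a ratio of 1.35 (1.265 to 1.44). All 3 intervals lay above 1 but below the threshold of 1.5. Slc38a4 (SNAT4) was rare and lower, with 149 and 76 reads and a ratio of 0.564 (0.420 to 0.745). Slc38a3 had 17 and 23 reads and Slc38a5 had 0 and 3. Slc38a1, Slc38a2 and Slc38a4 lie side by side on chromosome 15 with no other protein-coding gene starting between them, at ratios of 1.30, 1.16 and 0.564.

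Among the 6 carriers of acidic amino acids, 3 reached 1 CPM, of which the most abundant was lower and the other 2 were higher. Slc1a3 (EAAT1, also called GLAST), a glutamate carrier best known from astrocytes, stood at 27.5 CPM with DMSO and 5.56 CPM with GANT61, giving a ratio of 0.202 (0.179 to 0.228). Slc1a1 (EAAT3) had 40 and 88 reads, a ratio of 2.41 (1.65 to 3.615). Slc1a2 (EAAT2) had 39 and 95 reads, a ratio of 2.66 (1.83 to 4.00). These counts are small beside the 1723 and 316 reads of Slc1a3. Slc1a6 had 3 and 5 reads and Slc7a13 had 8 and 3, and the summed level of the class was 29.0 and 9.19 CPM. Slc1a4 (ASCT1), the carrier of alanine, serine, cysteine and threonine in the same family, was called neither, at 11.8 and 13.6 CPM and a ratio of 1.16 (1.05 to 1.28).

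The Slc36 family split, with neighbouring genes on opposite sides. Slc36a2 encodes PAT2, a carrier of glycine, alanine and proline that is also known as a surface marker of brown and beige adipocytes, and stood at 40.7 CPM with DMSO and 5.09 CPM with GANT61. Its ratio of 0.125 (0.110 to 0.141) was the lowest of the 35 members and lay within the range of the adipocyte markers. Slc36a1 (PAT1), which exports amino acids from lysosomes, stood at 25.5 and 46.1 CPM, giving a ratio of 1.81 (1.70 to 1.92). Slc36a4 (PAT4), a high-affinity carrier of proline and tryptophan, stood at 19.2 and 38.6 CPM, giving a ratio of 2.01 (1.87 to 2.16). Slc36a2 lies at chr11:55158470-55185077 on the minus strand and Slc36a1 at chr11:55204350-55236330 on the plus strand (mm10), 19.3 kb apart. Slc36a3, on the other side of Slc36a2, had 4 and 12 reads. The glycine carrier Slc6a9 (GlyT1) stood at 7.48 and 6.88 CPM, giving a ratio of 0.920 (0.802 to 1.055).

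In the Slc6 family, the taurine carrier was the most abundant member in both libraries. Slc6a6 (TauT), which takes up taurine, stood at 155 CPM with DMSO and 207 CPM with GANT61, giving a ratio of 1.34 (1.30 to 1.37) and below the threshold. Slc6a8, the creatine carrier, stood at 37.9 and 70.9 CPM, giving a ratio of 1.87 (1.78 to 1.97). Slc6a11, Slc6a12 and Slc6a13, which encode carriers of GABA or betaine, had at most 23 reads in either library.

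The 2 monoamine carriers that reached 1 CPM stood in opposite directions. Slc6a2 (NET), which takes up noradrenaline, stood at 71.8 CPM with DMSO and 19.7 CPM with GANT61, giving a ratio of 0.275 (0.257 to 0.2935). Slc6a4 (SERT), which takes up serotonin, stood at 2.43 and 6.44 CPM, giving a ratio of 2.65 (2.19 to 3.225). Slc6a3, the dopamine carrier, had 1 read and 0 reads. Slc6a2 was thus the second most abundant Slc6 gene of the DMSO library by RPKM, at 9.37, and ranked behind Slc6a6 and Slc6a8 in the GANT61 library, at 2.57 RPKM.

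Of the members whose substrate is unclear or outside amino acids, 3 of the 4 at 1 CPM or more were called neither and 1 was higher. Slc38a10, an intracellular member whose role is poorly defined, was number 3 of the 59 genes by RPKM in the DMSO library and number 2 in the other. It stood at 261 and 251 CPM, a ratio of 0.960 (0.938 to 0.981). Slc43a3, a nucleobase carrier, stood at 31.1 and 32.2 CPM, giving a ratio of 1.04 (0.973 to 1.11), and Slc7a4, whose substrate is not established, was at 2.97 and 3.41 CPM. Slc38a6, an Slc38 member with little known of its transport, was higher, at 13.9 and 29.4 CPM and a ratio of 2.11 (1.95 to 2.30).

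The remaining 24 of the 59 genes had a mean under 1 CPM and take no part in the counts above. Of these, 11 had more reads in the GANT61 library, 10 had fewer and 3 had equal numbers, and Slc6a16 had none in either. The intervals of 3 of them excluded 1. Slc1a7 had 2 and 15 reads, a ratio of 6.83 (1.92 to 74.4), Slc36a3 a ratio of 3.06 (1.001 to 14.1), and Slc6a19, the kidney and gut carrier B0AT1, had 13 and 46 reads and a ratio of 3.79 (2.07 to 7.86). In the DMSO library Slc7a15 was at 0, with 1 read in the other, and in the GANT61 library Slc38a11, Slc6a21 and Slc6a5 were at 0, with 4, 1 and 1 reads in the other. A count of 0 allows up to 3 counts, which is 0.0479 CPM in the DMSO and 0.0528 CPM in the GANT61 library. The level of Slc38a11 in the DMSO library, 0.064 CPM, lay just above the GANT61 limit, but its ratio interval (0 to 1.668) included 1. The other differences lay under these limits and were not detectable at this depth. The heavy chain Slc3a1 had 4 and 3 reads.

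Summed over all 59 genes, the length-scaled level was 367 RPKM in the DMSO and 380 RPKM in the GANT61 library. In CPM the sums were 1976 and 2230, a larger difference. The RPKM shares of some groups, such as the Slc1 family, differed more than either total. The 5 most abundant members held 57.1% and 50.1% of the summed RPKM, and 6 of the 10 most abundant were the same genes. Sodium-coupled carriers of glutamine and other neutral amino acids took 30.0% and 19.8%, of which Slc1a5 alone was 18.6% and 6.57%. Cationic carriers took 7.35% and 15.2%, of which Slc7a2 was 1.90% and 6.86%. By family, Slc1 stood at 20.7% and 7.71% and Slc7 stood at 19.2% and 26.1%. The Slc38 family held 23.2% and 25.4%, Slc3 14.7% and 18.0%, Slc6 10.9% and 12.7%, Slc43 5.95% and 6.32%, and Slc36 5.41% and 3.72%. These shares are of RNA in each library and have no replicate error.

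**Figure D3:**
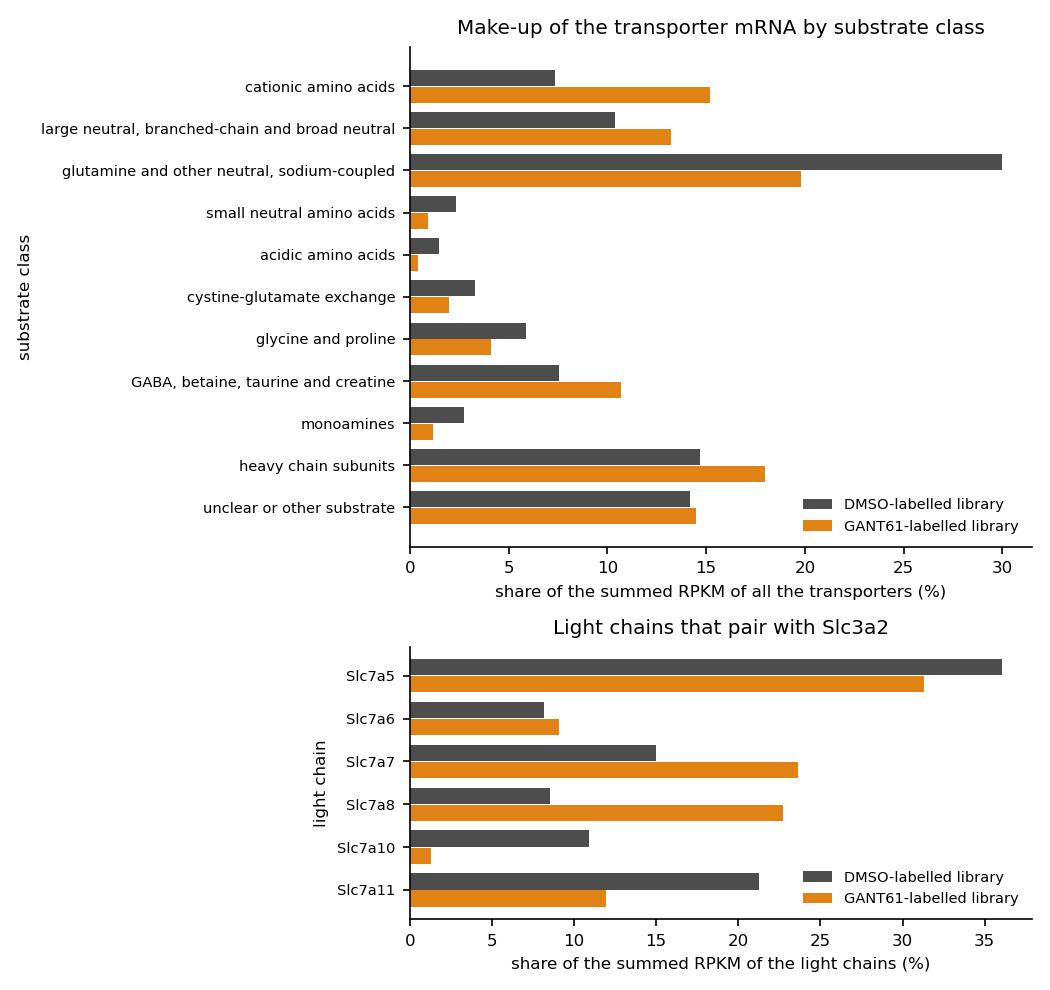
Share of summed deposited RPKM taken by each substrate class among the 59 transporters (upper panel) and by each light chain among the 6 that pair with Slc3a2 (lower panel), with 1 bar per library. The glutamine class has the longest bars in both libraries, at 30.0% and 19.8%, and the Slc7a8 bar grows from 8.55% to 22.7%.

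By family, calls in both directions appeared in 5 of the 7. Of the Slc1 genes at 1 CPM or more, 2 were higher and 2 lower of 5. In Slc6 it was 4 and 1 of 7, in Slc7 4 and 2 of 9, in Slc36 2 and 1 of 3, and in Slc38 2 and 1 of 7. The Slc43 family had 0 higher and 1 lower of 3, and the single Slc3 gene was neither. Over all genes at 1 CPM or more, 14.1% were higher and 10.3% lower.

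Enzymes that use arginine were among the called genes of amino acid metabolism, in lists written with earlier results of these data known. Of 22 enzymes of arginine, glutamine and glutathione metabolism, 6 were higher and 2 lower, and the median log2 ratio was 0.03. That is 27.3% and 9.09% of the list, beside 14.1% and 10.3% of all genes. The macrophage markers were higher in the same library, and their part in these values was not tested. Arg1, the arginase of alternative activation, stood at 436 CPM with DMSO and 1683 CPM with GANT61, giving a ratio of 3.86 (3.81 to 3.91). Nos2, the inducible nitric oxide synthase, stood at 37.9 and 201 CPM, giving a ratio of 5.30 (5.07 to 5.54). Both use the arginine that Slc7a2 carries, and all 3 genes were higher in the same library. The lower members were Bckdha at 0.4265 (0.405 to 0.449) and Bckdhb at 0.432 (0.4015 to 0.465), the subunits of the enzyme that commits branched-chain amino acids to breakdown and is abundant in fat.

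In the list of ATF4 and amino acid response genes, 5 of the 24 at 1 CPM or more were higher and 1 was lower, with a median of 0.23. These are 20.8% and 4.17% of the list, beside the same 14.1% and 10.3%. Atf3, a stress-induced transcription factor, stood at 33.2 and 71.2 CPM, giving a ratio of 2.145 (2.03 to 2.26). Mthfd2, a mitochondrial folate enzyme, stood at 16.5 and 37.2 CPM, giving a ratio of 2.26 (2.095 to 2.435). The lower member was Cth, which makes cysteine from cystathionine, at 43.5 and 12.2 CPM and a ratio of 0.282 (0.259 to 0.306), so that it stood on the same side as the cystine carrier Slc7a11. Atf4 itself was called neither, at 137 and 183 CPM and a ratio of 1.34 (1.30 to 1.38).

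Among the 27 genes of amino acid sensing by mTORC1 at 1 CPM or more, 2 passed the threshold upward and 1 downward, and the median was 0.05. Fnip2, a partner of folliculin, had a ratio of 2.32 (2.19 to 2.46), and Rragd, a Rag GTPase, of 3.67 (3.05 to 4.46). Sesn3, a relative of the leucine sensor Sestrin2, had a ratio of 0.593 (0.561 to 0.627). None of the 20 cytosolic aminoacyl-tRNA synthetases was called, with a median of 0.08, and the most abundant of them by RPKM in both libraries, Kars, was at 97.7 and 83.6 RPKM. Against the 14.1% and 10.3% of all genes, the shares called in the mTORC1 and synthetase lists were no higher.

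**Figure D4:**
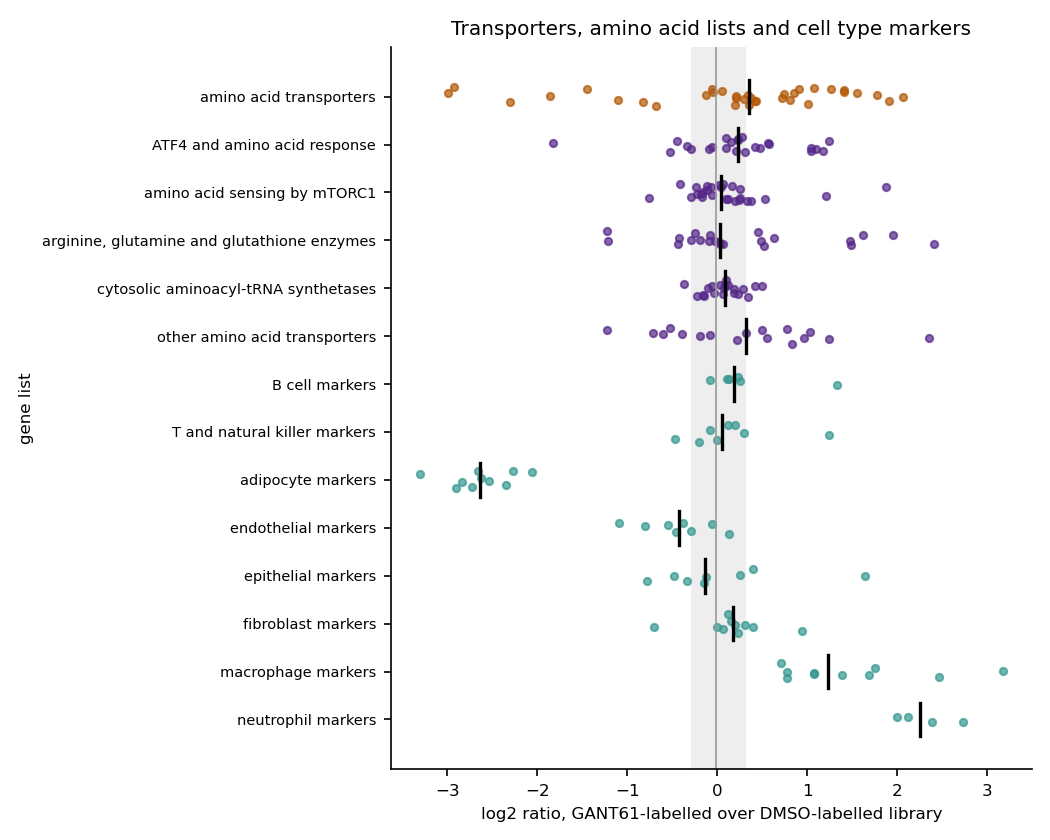
Log2 ratio of the GANT61 over the DMSO library for each gene with a mean of at least 1 CPM in the transporter families, 5 amino acid lists and 8 lists of cell type markers. Points are genes, black bars are medians, and the grey band is the interquartile range of all genes. The transporters spread from -3.00 to 2.07 around a median of 0.36, between the adipocyte markers at a median of -2.64 and the macrophage markers at 1.23.

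Set beside the cell type markers, all 14 higher transporters, with ratios from 1.64 to 4.19, lay within the macrophage marker range. The threshold for a higher call lay just under that range, 1.63 to 9.02, so lying within it says little about cell type. The range of all 7 neutrophil markers, rare ones included, was 0.593 to 6.62 and also held these 14. The ratios of Slc36a2, Slc7a10 and Slc1a3 lay within the range of the adipocyte markers. The other 5 lower members, Slc6a2, Slc1a5, Slc43a1, Slc38a4 and Slc7a11, had ratios from 0.275 to 0.625 and lay outside it. Fibroblast, endothelial and epithelial markers had medians of 0.18, -0.42 and -0.14, and T and natural killer cell and B cell markers of 0.06 and 0.18. In the neutrophil list, the 4 of 7 markers at 1 CPM or more were all higher, with a median of 2.25. Which cells expressed each transporter was not tested. Among the called members, Slc7a7, Slc7a10 and Slc1a1 share part of their span with a listed gene on the other strand (Oxa1l, Lrp3 and 4430402I18Rik), and with the strand setting unknown the reads of such pairs may not have been told apart.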

How the data were processed

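Messenger RNA of 2 samples, both labelled as RAW 264.7, was sequenced, 1 library per group. The authors deposited unscaled estimated counts per gene, and RPKM values. Partek, cutadapt, STAR, HISAT2 and SAMtools, with genome builds hg19 and mm10, appear in the submitters' processing notes. What each tool did, and the gene annotation and strandedness of counting, are not given in the sources used here. Columns were tied to libraries by the treatment in their names, since their numbers differed from those in the sample titles.

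The expected counts, as deposited, were rounded to whole numbers, and 18 of the 59 transporters had a value that was not whole, so some reads may have been split between similar genes. Library sizes were adjusted with edgeR's trimmed mean of M values, version 4.0.16 (R 4.3.3). Ratios used a prior count of 0.5 per library, with intervals from scipy 1.17.1 (Python 3.11.15). Since reads were not tagged with molecular identifiers, the intervals, and the limit of 3 counts that a 0 allows, describe counting error alone. The intervals and calls were run on simulated counts that held counting error only. That run therefore says nothing about spread between samples or mixtures of cells. RPKM values, normalized by the authors for gene length and a library total, were used to compare genes within a library and for sums and shares. That total is not given. At the median gene the RPKM scaling between libraries was 1.0969, beside 1.0681 from the summed counts.

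The members, the 11 substrate classes, the 5 amino acid lists and the markers were chosen with earlier results of these data known. Named with values were all called members, members with a mean of at least 20 CPM, the most abundant of each family and heavy and light chain partners, and of each list the most abundant called genes. Slc1a4, Slc6a9, Slc7a3, Slc7a4, Slc38a3, Slc1a7, Slc36a3, Slc6a19, Slc1a6, Slc7a13, Atf4, Ctns, Mfsd12, Slc15a4, Slc17a6, Slc25a44, Slc6a11, Slc6a12 and Slc6a13 were added after their values were seen. Of the rare members, 1 is counted but its own values are not reported here. Positions came from GENCODE M21 (mm10) and promoters from RefSeq (GRCm38.p6). Alternatives tried were DESeq2 1.42.0 size factors, total counts, a scaling factor from the deposited RPKM (the same for all genes) and a prior count of 2. Also tried were a 2-fold threshold, no minimum level or 5 CPM, and removal of the trend on gene length.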

Additional observations from a re-analysis of the deposited data

How the results depend on the processing

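No paired analysis was possible because each group held 1 library. For the same reason no library could be left out, and no spread between samples is known. The 14 higher and 8 lower members were the same genes with DESeq2 size factors, total counts only and a scaling factor from deposited RPKM. They were also the same with a prior count of 2 and with the length trend removed. Under these settings none of the 35 members changed direction, and the median log2 ratio lay between 0.28 and 0.36. The scalings by size factors, total counts and RPKM shifted all genes alike, by -0.004, -0.044 and -0.006 in log2 ratio. Each shift was smaller than the distance of any member from the threshold, so these scalings could not have changed a call. The other changes follow from stricter or looser thresholds. With a 2-fold threshold, 9 members were higher and 6 lower, and the higher genes numbered 1 in Slc36, 1 in Slc38 and 2 in Slc7, with 1 lower in Slc7 and 0 in Slc38. By class, that threshold left 1 cationic and 1 glycine and proline carrier higher, 0 in the GABA, betaine, taurine and creatine class, 1 glutamine carrier lower and 0 for cystine. In the lists it left 0 mTORC1 genes lower, and 3 other transporters higher and 1 lower. With a minimum mean of 5 CPM, 9 members were higher and 7 lower. The higher genes were then 0 in Slc1, 1 in Slc6, 0 acidic, 0 monoamine and 1 large neutral, and the lower ones 0 in Slc38 and 1 glutamine carrier. Without a minimum, 17 were higher, with 2 in the unclear class. The shares of all genes were not computed at 5 CPM or without a minimum. The median of the arginine, glutamine and glutathione list, 0.03, turned to -0.018 with total counts only, a scaling that moved the median of all genes by -0.04. The depth limits the 24 rare members, of which 15 had at most 5 reads in both libraries.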

Other observations

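Carriers of amino acids and related compounds outside the 7 families were also called in both directions. Of 24 listed genes in this set, 17 reached 1 CPM, and their median log2 ratio was 0.33. By the rule of size 6 were higher, 3 lower and 8 neither, which is 35.3% higher and 17.6% lower, beside 14.1% and 10.3% of all genes. Of the 6, Slc17a6 had 43 and 201 reads and was under 1 CPM in the DMSO library. It reached the mean of 1 CPM through the GANT61 library, so its inclusion favoured a high ratio. At a 2-fold threshold 3 of the set were higher and 1 lower. Slc15a3, an endolysosomal carrier of histidine and small peptides in immune cells, stood at 85.3 CPM with DMSO and 174 CPM with GANT61, giving a ratio of 2.04 (1.97 to 2.11). Pqlc2, the lysosomal exporter of cationic amino acids, stood at 4.92 and 11.7 CPM, giving a ratio of 2.37 (2.07 to 2.72). Slc17a5, a lysosomal carrier of sialic acid, stood at 21.6 and 42.3 CPM, giving a ratio of 1.96 (1.83 to 2.09). Some other lysosomal carriers of this set were called neither. Ctns, the lysosomal cystine exporter, had a ratio of 1.25 (1.18 to 1.33), Mfsd12 of 1.42 (1.34 to 1.496) and Slc15a4 of 1.47 (1.38 to 1.57). The macrophage markers were higher in the same library, and their part in these values was not tested.

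The lower genes of this set included mitochondrial carriers. Slc25a13, the aspartate-glutamate carrier citrin, stood at 46.7 CPM with DMSO and 30.8 CPM with GANT61, giving a ratio of 0.660 (0.622 to 0.701). Slc25a29, a mitochondrial carrier of basic amino acids, stood at 5.83 and 2.50 CPM, giving a ratio of 0.429 (0.350 to 0.522). The third was Slc16a10 (TAT1), a surface carrier of aromatic amino acids, at 35.8 and 21.8 CPM and a ratio of 0.610 (0.569 to 0.654). Slc25a44, which brings branched-chain amino acids into mitochondria and is known from brown fat, was called neither, at 45.7 and 34.8 CPM and a ratio of 0.762 (0.7195 to 0.808). Slc6a20a and Slc6a20b, whose symbols end in a letter and so fell outside the rule, had 17 and 0 reads in the DMSO and 21 and 1 reads in the GANT61 library.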
